A study of Mus musculus with 10 samples.

Results

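The genes described here encode the enzymes and transporters that carry fatty acids into the mitochondrion and oxidise them there and in the peroxisome, together with the enzymes that use ketone bodies. They were chosen by symbol and role, and all 36 were found among the 30074 genes of the expression table. RNA had been sequenced from the hearts of wild-type C57BL/6 male mice 8 to 12 weeks old, of about 25 g, all of which had received lipopolysaccharide (LPS), a bacterial endotoxin, into the peritoneum as a model of septic cardiomyopathy. LPS+ART mice (n = 5) also received artesunate, an antimalarial drug, by the same route at 50 mg/kg, first 10 min ahead of LPS and then 4 h after it. LPS+Vehicle mice (n = 5) received LPS with vehicle. Heart function was assessed 24 h after LPS, and a separate time of heart collection is not given. Hearts without LPS were not analysed here, so the values do not show what LPS itself did.

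The adult heart draws most of its energy from fatty acids. A fatty acid is joined to coenzyme A, passed to carnitine on the outer mitochondrial membrane, carried inward and passed back to coenzyme A, and malonyl-CoA blocks the first transfer. In the matrix a repeated cycle of dehydrogenation, hydration, another dehydrogenation and thiolysis shortens the chain, while a flavoprotein hands the electrons to the respiratory chain. Peroxisomes shorten chains that are too long or branched for mitochondria, and the heart also burns ketone bodies made by the liver.

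Among the 36, the genes of the carnitine shuttle with its control and of peroxisomal oxidation were lower with artesunate. Most genes of the mitochondrial cycle and of ketone use did not pass the test. All 6 genes of the shuttle and its control and all 4 peroxisomal genes fell. So did 2 of 4 acyl-CoA synthetases, 1 of 6 acyl-CoA dehydrogenases and 1 of 4 auxiliary enzymes. The direction turned after median-ratio scaling for Crat, Acsl1 and Eci2. Slc25a20, the inward carrier of the shuttle, is not among the 36 and was not called lower. Etfa, the alpha subunit of the electron transfer flavoprotein, was the 1 gene that rose, and it was not called after cyclic loess. These calls are limma adjusted p under 0.05 on log2(FPKM + 1), where FPKM counts reads relative to exon length and library total, as deposited. They made 14 of the 36 genes lower, or 38.9%, where 52.9% of the 13314 genes tested were called lower. They made 1 higher, where 11.8% of all genes were called higher. The share of lower calls among the 36 was thus not above that of genes at large, and their median log2 fold change was -0.18, against -0.27 for all genes.

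The deposited values carry this shift of all genes, so each call was also read with the shift removed. After each library was divided by its median ratio to the other libraries, the median log2 fold change was 0.02 over all genes and 0.21 over the 36. Then 9 of the 36 were called lower and 16 higher, against 30.3% lower and 29.9% higher of all genes. The 9 were Acsl5, Cpt1a, Cpt1b, Cpt2, Slc22a5, Mlycd, Acad10, Acox3 and Ehhadh, all called lower as deposited too. The other 5 genes lower as deposited, Acsl1, Crat, Eci2, Hsd17b4 and Acaa1a, were not called after this scaling. Cyclic loess, which also removes a trend of change with expression level, left 12 of the 36 lower and 3 higher, against 28.7% lower and 29.0% higher of all genes. Cpt1a, Cpt1b, Cpt2, Slc22a5, Mlycd, Acad10, Acox3 and Ehhadh were called lower as deposited, after either scaling, and by limma-voom on read numbers recovered from the FPKM, where 9 of the 36 were lower and 16 higher, against 30.8% and 30.1% of all genes. No gene was called higher under all 4.

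**Figure D1:**
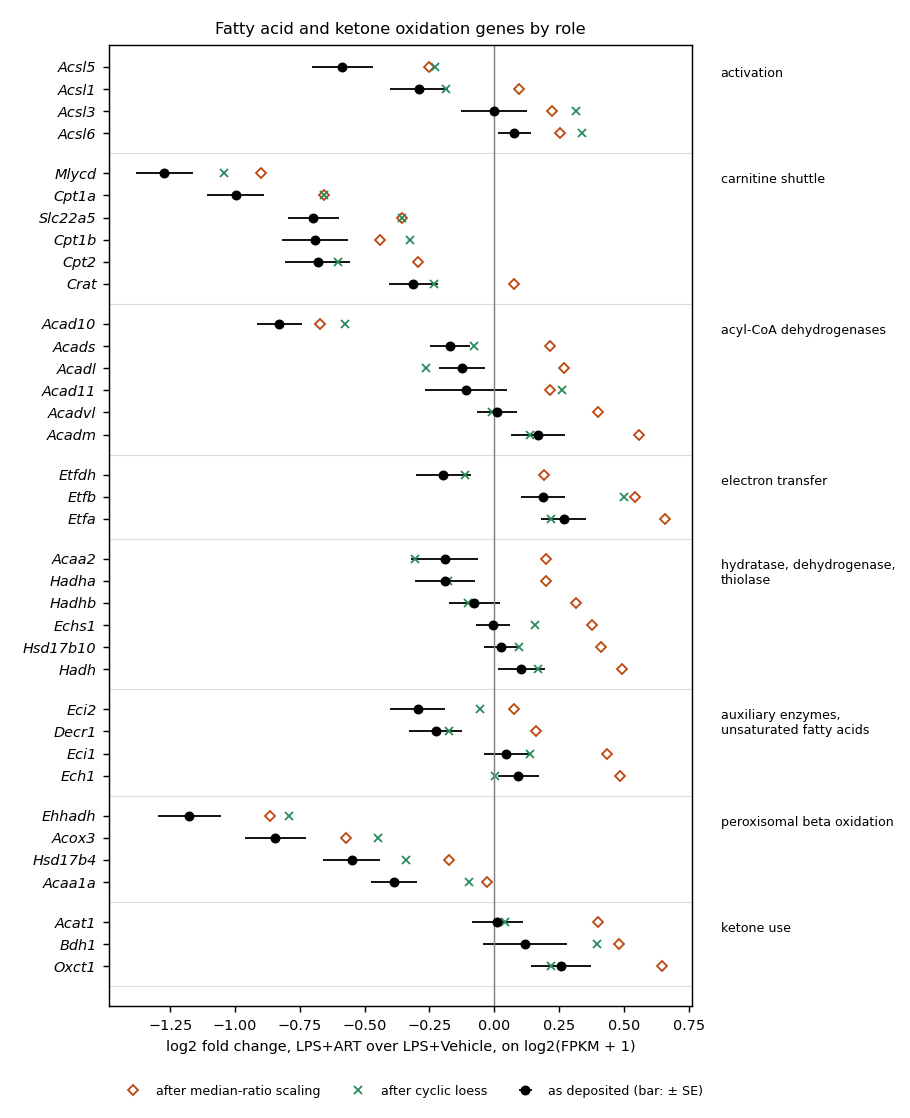
Log2 fold change, LPS+ART over LPS+Vehicle, of each of the 36 genes, grouped by role, as deposited (with SE), after median-ratio scaling and after cyclic loess (n = 5 libraries each). Mlycd, Ehhadh and Cpt1a have the lowest values as deposited, at -1.27, -1.18 and -0.998.

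Some libraries stood apart from the rest. LPS+Vehicle replicates 2 and 5 were nearly alike, with a chi-square of read pairs over its degrees of freedom of 1.76, where other pairs of libraries within a group gave 13.6 to 47.9. They may be a single sample, in which case LPS+Vehicle has 4 independent libraries and its errors are too small. They were kept apart here, and averaging them left 15 of the 36 genes lower and 1 higher, against 49.8% and 10.8% of all genes. LPS+ART replicates 3 and 4 lay at -20.2 and -16.3 on the second principal component, where the other LPS+ART hearts lay at 12.8 to 15.3. Without these 2 hearts 11 of the 36 genes were lower and 2 higher (Etfb and Oxct1), against 49.1% and 11.4% of all genes, and Acsl1, Crat, Eci2 and Etfa lost their calls. Recovered totals were 30684056 to 36679402 reads in the LPS+ART libraries, against 29980900 to 54222272 in the LPS+Vehicle libraries, and the fewest reads behind a value of the 36 genes were 43.

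Markers of cell types moved as well. The 8 cardiomyocyte markers summed to 8375 to 10393 FPKM in LPS+ART hearts and 7240 to 7876 FPKM in LPS+Vehicle hearts, as the labelled tissue would have, with 4 of them called higher and 2 lower as deposited. All 6 macrophage markers were lower, with sums of 38.9 to 69.8 FPKM in LPS+ART hearts and 109 to 175 FPKM in LPS+Vehicle hearts, as were 4 of 6 fibroblast markers, with sums of 123 to 156 FPKM in LPS+ART hearts and 148 to 271 FPKM in LPS+Vehicle hearts. Of 5 erythroid markers 4 were higher as deposited and 5 after median-ratio scaling, with sums of 56.6 to 129 FPKM in LPS+ART hearts and 19.9 to 66.5 FPKM in LPS+Vehicle hearts. After that scaling 5 cardiomyocyte markers were higher and 1 lower, and 6 macrophage and 4 fibroblast markers were lower. Of 6 endothelial markers 1 was higher and 3 lower as deposited, and 3 higher and 1 lower after scaling. Of all genes 52.9% were lower and 11.8% higher as deposited, and 30.3% and 29.9% after scaling. Of 6 neutrophil markers 2 were lower as deposited and 1 after scaling, but the sum of all 6 as deposited did not fall. That sum was uneven among LPS+ART hearts, at 29.3 to 232.5 FPKM with a mean of 92.8 FPKM. In LPS+Vehicle hearts it was 29.0 to 68.7 FPKM with a mean of 51.7 FPKM. Fat and liver also express these enzymes. The 5 adipocyte markers measured summed to 0.0827 to 2.39 FPKM in LPS+ART hearts and 0.0379 to 1.02 FPKM in LPS+Vehicle hearts, and the 4 hepatocyte markers to 0.476 to 1.06 FPKM in LPS+ART hearts and 0.406 to 1.04 FPKM in LPS+Vehicle hearts. The brown fat markers Ucp1 and Cidea summed to 10.7 to 16.3 FPKM in LPS+ART hearts and 14.9 to 23.5 FPKM in LPS+Vehicle hearts. Of these, 1 was called lower as deposited and 0 after median-ratio scaling. The part of these cell types in the results was not tested, and in whole hearts fewer cells of a type and less RNA per cell cannot be told apart.

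Activation comes first. Acsl1, the main long-chain acyl-CoA synthetase of heart muscle, stood at 56.6, 43.3, 44.2, 43.6 and 46.8 FPKM in the LPS+ART hearts, against 59.4, 48.7, 67.5, 63.9 and 49.6 FPKM in the LPS+Vehicle hearts. LPS+ART replicate 1 lay above the other LPS+ART hearts, and the groups overlapped. Acsl1 fell by 0.29 on the log2 scale as deposited (SE 0.11, limma adjusted p = 0.0371), but the fold change was 0.10 after median-ratio scaling (limma adjusted p = 0.479). Its call was lost whenever LPS+ART replicate 2, 3, 4 or 5 or LPS+Vehicle replicate 1, 3 or 4 was left out, and also with no filter on low values (limma adjusted p = 0.0685).

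Acsl5, a synthetase of the endoplasmic reticulum and mitochondria, stood at 4.96, 5.50, 3.35, 4.05 and 5.12 FPKM in the LPS+ART hearts, against 7.88, 8.03, 6.87, 6.10 and 7.88 FPKM in the LPS+Vehicle hearts. Every LPS+ART heart lay below every LPS+Vehicle heart. The log2 fold change of Acsl5 was -0.59 as deposited (SE 0.12, limma adjusted p = 0.00103) and -0.25 after median-ratio scaling (limma adjusted p = 0.0423), and after cyclic loess the call was lost (-0.23, limma adjusted p = 0.0589). Acsl3 and Acsl6 were scarce. Acsl3, found on lipid droplets, averaged 1.33 ± 0.430 FPKM in LPS+ART, against 1.31 ± 0.271 FPKM in LPS+Vehicle (here and below ± SD, n = 5 each), with limma adjusted p = 0.997. Acsl6, best known from brain, averaged 0.862 ± 0.0835 FPKM in LPS+ART, against 0.764 ± 0.0683 FPKM in LPS+Vehicle; it was not called as deposited (limma adjusted p = 0.299) and was called higher after either scaling.

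The carnitine shuttle and its control held 6 genes, all called lower as deposited, where 52.9% of all genes were called lower. After median-ratio scaling 5 of the 6 were called lower, against 30.3% of all genes. Groups were separate on that side for 5 of the 6 as deposited and 2 after scaling, against 42.5% and 23.1% of all genes. Slc25a20, the inward carrier of acylcarnitine, belongs to the wider list below and was not called lower. It averaged 34.2 ± 5.31 FPKM in LPS+ART, against 35.8 ± 3.83 FPKM in LPS+Vehicle (limma adjusted p = 0.601). After median-ratio scaling Slc25a20 was called higher at 0.31 (limma adjusted p = 0.0221), and after cyclic loess it was not called. Mlycd and Cpt1a, with the peroxisomal gene Ehhadh, had the lowest log2 fold changes of the 36 as deposited with the pseudocount of 1, and the 250 bases before their RefSeq start sites (GRCm38.p6) are shown for that reason. The order depends on the scale: by the ratio of mean FPKM and by limma-voom Acad10 was lowest, and Acox3 lay below Cpt1a. Capitals mark CCAAT and AGGTCA, on either strand, and each sequence runs 5′ to 3′ along its gene.
Mlycd, chr8:119394644-119394893, plus strand: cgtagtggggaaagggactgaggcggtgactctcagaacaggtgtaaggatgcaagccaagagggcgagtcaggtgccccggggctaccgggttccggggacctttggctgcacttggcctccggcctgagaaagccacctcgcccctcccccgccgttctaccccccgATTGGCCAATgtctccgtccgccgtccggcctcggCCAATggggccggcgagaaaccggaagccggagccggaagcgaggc
Ehhadh, chr16:21787835-21788084, minus strand: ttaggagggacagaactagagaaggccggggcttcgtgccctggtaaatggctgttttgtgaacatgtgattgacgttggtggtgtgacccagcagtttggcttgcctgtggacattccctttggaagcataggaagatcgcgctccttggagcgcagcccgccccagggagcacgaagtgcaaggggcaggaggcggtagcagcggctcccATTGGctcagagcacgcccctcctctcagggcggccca
Cpt1a, chr19:3323051-3323300, plus strand: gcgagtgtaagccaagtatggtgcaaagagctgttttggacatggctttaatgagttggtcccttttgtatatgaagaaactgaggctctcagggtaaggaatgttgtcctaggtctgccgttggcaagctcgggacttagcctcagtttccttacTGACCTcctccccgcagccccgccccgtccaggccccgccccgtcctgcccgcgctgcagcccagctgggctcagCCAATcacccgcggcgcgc

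The promoter table held windows for 30 of the 36 genes, 34 windows of 250 bases before to 50 after a start. TCAAGGTCA, the element of oestrogen-related receptors, occurred on either strand in 1 of the 34, that of Acsl6, and in 0.423% of all 32851 windows. The direct repeat bound by peroxisome proliferator-activated receptors, searched as AGGNCA, any base and AGGNCA again, occurred in 0 of the 34 and in 0.381% of all windows. AGGTCA, which lies inside the first pattern and can lie inside the second, occurred in 5 of the 34 windows, Cpt1a among them, and in 16.3% of all. CCAAT occurred in 16 of the 34, Mlycd, Ehhadh and Cpt1a among them, and in 37.4% of all. The searches for AGGTCA and CCAAT were added after results were seen. Cpt1b, Crat, Decr1, Acat1, Acaa2 and Hsd17b4 were not matched.

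Mlycd encodes malonyl-CoA decarboxylase, which removes the inhibitor of carnitine palmitoyltransferase. It stood at 13.3, 8.86, 13.0, 12.6 and 11.5 FPKM in the LPS+ART hearts, against 30.3, 27.3, 34.2, 31.2 and 26.5 FPKM in the LPS+Vehicle hearts. The groups lay far apart, with no LPS+ART heart above 13.3 FPKM and no LPS+Vehicle heart under 26.5 FPKM. Its log2 fold change was -1.27 (SE 0.11, limma adjusted p = 6.96e-06), and -0.90 after median-ratio scaling. Acacb, which makes the malonyl-CoA found at mitochondria and so works opposite to Mlycd, was singled out after its values were seen. It averaged 20.1 ± 2.12 FPKM in LPS+ART, against 40.8 ± 5.51 FPKM in LPS+Vehicle, a log2 fold change of -0.99 (limma adjusted p = 1.45e-05).

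Cpt1a and Cpt1b encode the liver and muscle forms of the outer carnitine palmitoyltransferase, the enzyme that malonyl-CoA inhibits. Cpt1a stood at 5.26, 4.59, 4.00, 3.90 and 5.84 FPKM in the LPS+ART hearts, against 10.8, 9.28, 12.1, 10.6 and 9.17 FPKM in the LPS+Vehicle hearts. The groups did not overlap, as deposited or after median-ratio scaling. The log2 fold change of Cpt1a was -0.998 (SE 0.11, limma adjusted p = 1.94e-05), and -0.66 after median-ratio scaling. Cpt1b stood at 1.63, 1.01, 1.03, 1.20 and 1.74 FPKM in the LPS+ART hearts, against 3.02, 2.44, 2.76, 3.58 and 1.99 FPKM in the LPS+Vehicle hearts. Its groups were separate as deposited and overlapped after scaling. As a log2 fold change this was -0.69 (SE 0.13, limma adjusted p = 0.000616), and -0.44 after median-ratio scaling. Per length, Cpt1a stood above Cpt1b in all 10 hearts, at a ratio of 3.23 to 4.52 in the LPS+ART hearts, against 2.95 to 4.61 in the LPS+Vehicle hearts. The level and the fall of Cpt1b are uncertain as well as that order, since 81.4% of the exon bases of Cpt1b also belong to Gm44502 on the same strand, which was not analysed here, and how shared reads were counted is not given in the sources used here. Without the 5 genes whose exon bases overlap another gene by more than 10%, 13 of 31 genes were called lower as deposited. Of all genes tested 52.9% were called lower, so this share too was not above that of genes at large.

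Cpt2 encodes the inner carnitine palmitoyltransferase, which returns the chain to coenzyme A. It stood at 68.8, 54.7, 46.3, 42.7 and 52.1 FPKM in the LPS+ART hearts, against 90.0, 76.8, 98.9, 83.0 and 75.0 FPKM in the LPS+Vehicle hearts. The groups were separate as deposited and overlapped after scaling. That gave a log2 fold change of -0.68 (SE 0.13, limma adjusted p = 0.000587), and -0.29 after median-ratio scaling (limma adjusted p = 0.0352). The ratio of Cpt1a to Cpt2, which scaling a library cannot change, was 0.0764 to 0.112 in the LPS+ART hearts, against 0.120 to 0.127 in the LPS+Vehicle hearts, without overlap.

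Slc22a5 encodes OCTN2, which brings carnitine into the cell. It stood at 5.27, 4.64, 6.01, 4.69 and 5.50 FPKM in the LPS+ART hearts, against 8.75, 7.97, 10.9, 10.0 and 8.03 FPKM in the LPS+Vehicle hearts. Each LPS+ART heart was lower than each LPS+Vehicle heart as deposited, and the groups overlapped after scaling. This was a log2 fold change of -0.70 (SE 0.10, limma adjusted p = 9.28e-05), and -0.36 after median-ratio scaling (limma adjusted p = 0.012). Crat, the carnitine acetyltransferase that buffers acetyl-CoA, averaged 58.1 ± 6.36 FPKM in LPS+ART, against 72.5 ± 7.66 FPKM in LPS+Vehicle. It fell by 0.31 on the log2 scale as deposited (limma adjusted p = 0.0125), but the fold change was 0.07 after median-ratio scaling (limma adjusted p = 0.495).

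**Figure D2:**
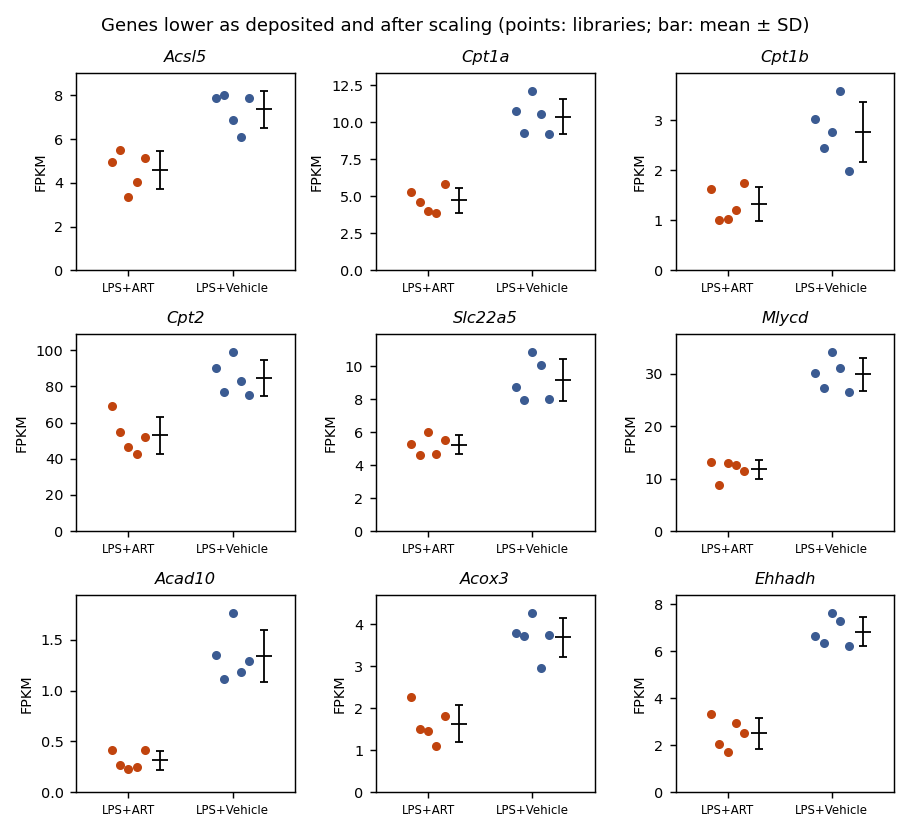
FPKM as deposited in each LPS+ART and LPS+Vehicle library (points; bars are mean ± SD, n = 5 each) for the 9 genes called lower as deposited and after median-ratio scaling. In each panel the LPS+ART points lie below the LPS+Vehicle points, for Mlycd at 8.86 to 13.3 against 26.5 to 34.2 FPKM.

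Acyl-CoA dehydrogenases take the first electrons from the chain. Acadl, the long-chain enzyme and the most abundant of the 36 genes, stood at 517, 526, 395, 432 and 478 FPKM in the LPS+ART hearts, against 529.6, 487, 556, 497 and 482 FPKM in the LPS+Vehicle hearts. The groups overlapped, with LPS+ART replicates 3 and 4 lowest. On the log2 scale the fold change was -0.13 as deposited (SE 0.09, limma adjusted p = 0.238), and its direction turned with the scaling, called higher at 0.27 after median-ratio scaling (limma adjusted p = 0.0133) and lower at -0.27 after cyclic loess (limma adjusted p = 0.0133). Acadm, the medium-chain enzyme, averaged 187 ± 19.1 FPKM in LPS+ART, against 166 ± 21.4 FPKM in LPS+Vehicle (limma adjusted p = 0.171). Acadvl, the very-long-chain enzyme, averaged 159 ± 11.2 FPKM in LPS+ART, against 158 ± 12.9 FPKM in LPS+Vehicle (limma adjusted p = 0.912), and exons of Dvl2 on the other strand cover 42.9% of its exon bases. Acads, the short-chain enzyme, averaged 53.6 ± 1.86 FPKM in LPS+ART, against 60.7 ± 6.17 FPKM in LPS+Vehicle (limma adjusted p = 0.0675). These 3 genes were called higher after median-ratio scaling, at 0.56 for Acadm, 0.40 for Acadvl and 0.22 for Acads, and not called after cyclic loess.

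Acad10 and Acad11 are less studied members of that family. Acad10 stood at 0.411, 0.269, 0.231, 0.243 and 0.413 FPKM in the LPS+ART hearts, against 1.35, 1.11, 1.77, 1.18 and 1.29 FPKM in the LPS+Vehicle hearts. It was scarce, yet the groups did not overlap, as deposited or after scaling. Its mean in LPS+ART was 0.234 times that in LPS+Vehicle, the lowest such ratio of the 36 genes. The log2 fold change of Acad10 was -0.83 with the pseudocount of 1 (SE 0.09, limma adjusted p = 1.5e-05), which understates low genes, and -1.73 by limma-voom on recovered reads. Acad11 averaged 4.67 ± 1.17 FPKM in LPS+ART, against 5.10 ± 1.18 FPKM in LPS+Vehicle (limma adjusted p = 0.561).

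The electron transfer flavoprotein collects electrons from these dehydrogenases. Etfa stood at 234, 227, 253, 229.6 and 210.3 FPKM in the LPS+ART hearts, against 189, 169.8, 222, 204 and 177 FPKM in the LPS+Vehicle hearts. As deposited LPS+ART replicate 5 lay below LPS+Vehicle replicate 3, the 1 crossing between the groups. After median-ratio scaling the groups were separate with LPS+ART above, as in 21.5% of all genes. Of genes above 100 FPKM, the level of Etfa, 77.0% were called higher after that scaling. Etfa rose by 0.27 on the log2 scale as deposited (SE 0.09, limma adjusted p = 0.0167) and by 0.66 after median-ratio scaling, and was not called after cyclic loess (limma adjusted p = 0.0587). Etfb, the beta subunit, averaged 10.2 ± 1.01 FPKM in LPS+ART, against 8.81 ± 0.819 FPKM in LPS+Vehicle (limma adjusted p = 0.0698), and was called higher after either scaling. The ratio of Etfa to Etfb, both per length, was 19.1 to 27.6 in the LPS+ART hearts, against 19.3 to 23.0 in the LPS+Vehicle hearts. The level of Etfb is uncertain, since 58.2% of its exon bases also belong to Gm45233 and Mir7051 on the same strand. Etfdh, which passes the electrons on to ubiquinone, averaged 57.9 ± 7.35 FPKM in LPS+ART, against 66.5 ± 8.22 FPKM in LPS+Vehicle (limma adjusted p = 0.121).

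None of the 6 genes that hydrate, oxidise again and cleave the chain was called as deposited. Acaa2, a thiolase and the most abundant of them, stood at 419, 426, 274, 325 and 342 FPKM in the LPS+ART hearts, against 443, 363, 461, 412 and 347 FPKM in the LPS+Vehicle hearts. The groups overlapped, with LPS+ART replicates 3 to 5 under all LPS+Vehicle hearts and replicates 1 and 2 within their range. Its fold change, on the log2 scale, was -0.19 as deposited (SE 0.13, limma adjusted p = 0.215), 0.20 after median-ratio scaling (limma adjusted p = 0.179) and -0.31 after cyclic loess (limma adjusted p = 0.0405). Echs1, the short-chain enoyl-CoA hydratase, averaged 32.7 ± 1.07 FPKM in LPS+ART, against 32.8 ± 2.38 FPKM in LPS+Vehicle (limma adjusted p = 0.954). Hadh, the short-chain hydroxyacyl-CoA dehydrogenase, averaged 78.3 ± 7.72 FPKM in LPS+ART, against 72.7 ± 6.76 FPKM in LPS+Vehicle (limma adjusted p = 0.327). Hsd17b10, a dehydrogenase that also serves isoleucine breakdown, averaged 70.9 ± 3.82 FPKM in LPS+ART, against 69.6 ± 4.17 FPKM in LPS+Vehicle (limma adjusted p = 0.753). Echs1, Hadh, Hsd17b10 and Hadhb were called higher after median-ratio scaling and not called after cyclic loess.

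Hadha and Hadhb encode the subunits of the trifunctional protein, which carries long chains through these steps. Hadha averaged 113 ± 15.7 FPKM in LPS+ART, against 129 ± 18.4 FPKM in LPS+Vehicle (limma adjusted p = 0.175). Hadhb averaged 165 ± 16.2 FPKM in LPS+ART, against 174 ± 20.1 FPKM in LPS+Vehicle (limma adjusted p = 0.509). The ratio of Hadha to Hadhb was 0.602 to 0.801 in the LPS+ART hearts, against 0.707 to 0.772 in the LPS+Vehicle hearts, with overlap. The genes stand head to head on chromosome 5 with 272 bases between their RefSeq starts, and the 250 of these bases next to Hadhb are shown along Hadhb because both genes start from this stretch. It holds neither CCAAT nor AGGTCA, so nothing is in capitals.
Hadhb, chr5:30155003-30155252, plus strand: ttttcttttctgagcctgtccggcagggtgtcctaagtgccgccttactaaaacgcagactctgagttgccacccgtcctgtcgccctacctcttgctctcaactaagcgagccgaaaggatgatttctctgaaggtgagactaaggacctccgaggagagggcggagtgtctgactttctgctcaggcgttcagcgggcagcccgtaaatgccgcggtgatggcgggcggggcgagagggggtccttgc

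Unsaturated chains need auxiliary enzymes. Ech1, a dienoyl-CoA isomerase, stood at 308, 354, 321, 313 and 296 FPKM in the LPS+ART hearts, against 308, 276, 311, 332 and 266 FPKM in the LPS+Vehicle hearts. The groups overlapped as deposited (limma adjusted p = 0.327), and Ech1 was called higher after median-ratio scaling (0.48) and by limma-voom but not after cyclic loess. Eci1, an enoyl-CoA isomerase, averaged 59.4 ± 4.43 FPKM in LPS+ART, against 57.7 ± 6.23 FPKM in LPS+Vehicle (limma adjusted p = 0.656). Eci1 was likewise called higher after median-ratio scaling and by limma-voom but not after cyclic loess. Eci2, an isomerase of mitochondria and peroxisomes, averaged 15.6 ± 2.03 FPKM in LPS+ART, against 19.4 ± 2.31 FPKM in LPS+Vehicle. It fell by 0.30 on the log2 scale as deposited (limma adjusted p = 0.0287), but the fold change was 0.08 after median-ratio scaling (limma adjusted p = 0.518). That call of Eci2 was lost without LPS+ART replicate 3 or 4 or LPS+Vehicle replicate 1, 3 or 4, and also with no filter on low values (limma adjusted p = 0.0524). Decr1, the dienoyl-CoA reductase, averaged 75.9 ± 9.30 FPKM in LPS+ART, against 88.9 ± 10.0 FPKM in LPS+Vehicle (limma adjusted p = 0.0711).

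**Figure D3:**
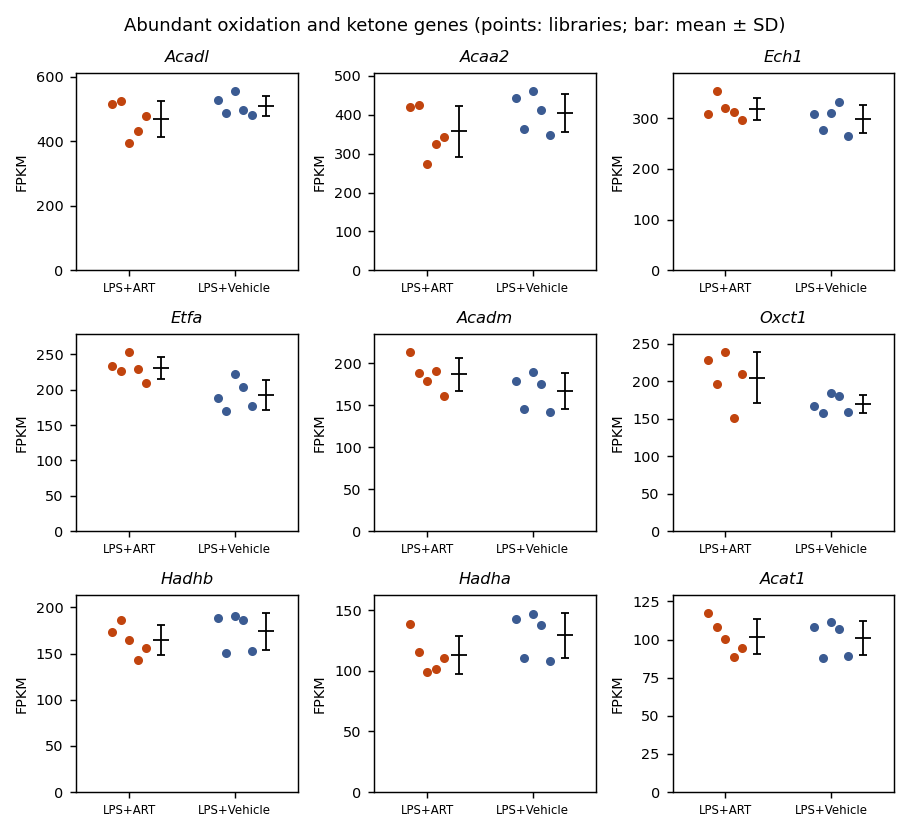
FPKM as deposited in each LPS+ART and LPS+Vehicle library (points; bars are mean ± SD, n = 5 each) for 9 abundant genes of the mitochondrial cycle and ketone use. The groups overlap in every panel as deposited, for Etfa at 210.3 to 253 against 169.8 to 222 FPKM. After median-ratio scaling, not shown, they separate with LPS+ART above for Acadm, Acat1, Ech1, Etfa and Oxct1, as in 21.5% of all genes. These genes average above 100 FPKM, where 77.0% of genes were called higher after that scaling. The share of genes with separate groups at that level is not given here.

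All 4 peroxisomal genes fell as deposited, where 52.9% of all genes were called lower, and their groups did not overlap, as in 42.5% of all genes on the lower side. After median-ratio scaling 2 of the 4, Acox3 and Ehhadh, were called lower with separate groups, where 30.3% of all genes were called lower and 23.1% had separate groups on that side. Ehhadh, a bifunctional hydratase and dehydrogenase, stood at 3.33, 2.03, 1.72, 2.95 and 2.51 FPKM in the LPS+ART hearts, against 6.66, 6.34, 7.63, 7.30 and 6.23 FPKM in the LPS+Vehicle hearts. Its groups stayed separate after median-ratio scaling. Ehhadh had a log2 fold change of -1.18 (SE 0.12, limma adjusted p = 1.53e-05), and -0.86 after median-ratio scaling. Hsd17b4, the bifunctional enzyme that also takes branched chains, stood at 19.1, 14.5, 22.5, 17.9 and 16.6 FPKM in the LPS+ART hearts, against 28.5, 26.4, 30.1, 23.3 and 25.9 FPKM in the LPS+Vehicle hearts. All LPS+ART hearts lay below all LPS+Vehicle hearts, by a small margin. Its log2 fold change was -0.55 (SE 0.11, limma adjusted p = 0.00106), and it was not called after median-ratio scaling (-0.17, limma adjusted p = 0.228). Acox3, an oxidase of branched-chain acyl-CoA, ranged over 1.11 to 2.27 FPKM in LPS+ART hearts and 2.97 to 4.28 FPKM in LPS+Vehicle hearts, a log2 fold change of -0.85 (limma adjusted p = 8.54e-05). Acaa1a, a peroxisomal thiolase, averaged 9.80 ± 1.14 FPKM in LPS+ART, against 13.1 ± 1.11 FPKM in LPS+Vehicle. It fell by 0.39 on the log2 scale (limma adjusted p = 0.0025) and was not called after median-ratio scaling (-0.03, limma adjusted p = 0.759).

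None of the 3 genes of ketone use was called as deposited, and all 3 were called higher after median-ratio scaling, where 29.9% of all genes were higher, and 77.0% of those above 100 FPKM, the level of Oxct1 and Acat1. Oxct1, the transferase that starts the use of acetoacetate, stood at 228, 196, 239, 152 and 209 FPKM in the LPS+ART hearts, against 166, 158, 184, 181 and 159 FPKM in the LPS+Vehicle hearts. As deposited LPS+ART replicate 4 was the lowest of the 10 hearts, and the other 4 LPS+ART hearts lay above all LPS+Vehicle hearts. After median-ratio scaling every LPS+ART heart lay above every LPS+Vehicle heart, as in 21.5% of all genes. The log2 fold change of Oxct1 was 0.26 as deposited (SE 0.12, limma adjusted p = 0.0701), 0.65 after median-ratio scaling (limma adjusted p = 0.000451) and 0.22 after cyclic loess (limma adjusted p = 0.116). Without LPS+ART replicate 4 it was 0.36 as deposited and was called higher. Bdh1, which oxidises beta-hydroxybutyrate, averaged 13.3 ± 3.90 FPKM in LPS+ART, against 11.9 ± 1.11 FPKM in LPS+Vehicle (limma adjusted p = 0.538), with LPS+ART replicates 1 and 3 the highest hearts. Acat1, the mitochondrial acetoacetyl-CoA thiolase, averaged 102 ± 11.4 FPKM in LPS+ART, against 101 ± 11.3 FPKM in LPS+Vehicle (limma adjusted p = 0.923). After cyclic loess Bdh1 was called higher and Acat1 was not called. Exons of other genes on the opposite strand cover 13.7% of the exon bases of Bdh1 and 12.6% of those of Oxct1.

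Median-ratio scaling multiplies all genes of a library alike, so the makeup of the 36 genes within each heart does not depend on it. Their FPKM summed to 2775 to 3291 in LPS+ART hearts and 2805 to 3465 in LPS+Vehicle hearts. The 6 genes of the carnitine shuttle and its control made up 4.47 ± 0.347% in LPS+ART hearts against 6.69 ± 0.125% in LPS+Vehicle hearts, without overlap. Peroxisomal genes made up 1.07 ± 0.122% in LPS+ART hearts against 1.62 ± 0.114% in LPS+Vehicle hearts, and synthetases 1.79 ± 0.131% in LPS+ART hearts against 2.15 ± 0.0738% in LPS+Vehicle hearts, both without overlap. Electron transfer genes held more of the sum, 10.0 ± 0.915% in LPS+ART hearts against 8.55 ± 0.299% in LPS+Vehicle hearts, also without overlap. Ketone genes held 10.7 ± 1.37% in LPS+ART hearts against 9.04 ± 0.239% in LPS+Vehicle hearts, where LPS+ART replicate 4 lay inside the LPS+Vehicle range. The shares of dehydrogenases, of the next steps of the cycle and of auxiliary enzymes overlapped between groups. Single genes weigh heavily in some roles. In LPS+ART hearts Acsl1 averaged 46.9 of 53.7 FPKM of the synthetases, Hsd17b4 18.1 of 32.1 FPKM of the peroxisomal genes and Etfa 231 of 299 FPKM of electron transfer. The sum also holds 10 genes above 100 FPKM, a level with a median log2 fold change of 0.13 over all its genes, against -0.27 for all genes tested. The part of that trend in the shares was not tested. These shares are descriptions without a test.

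**Figure D4:**
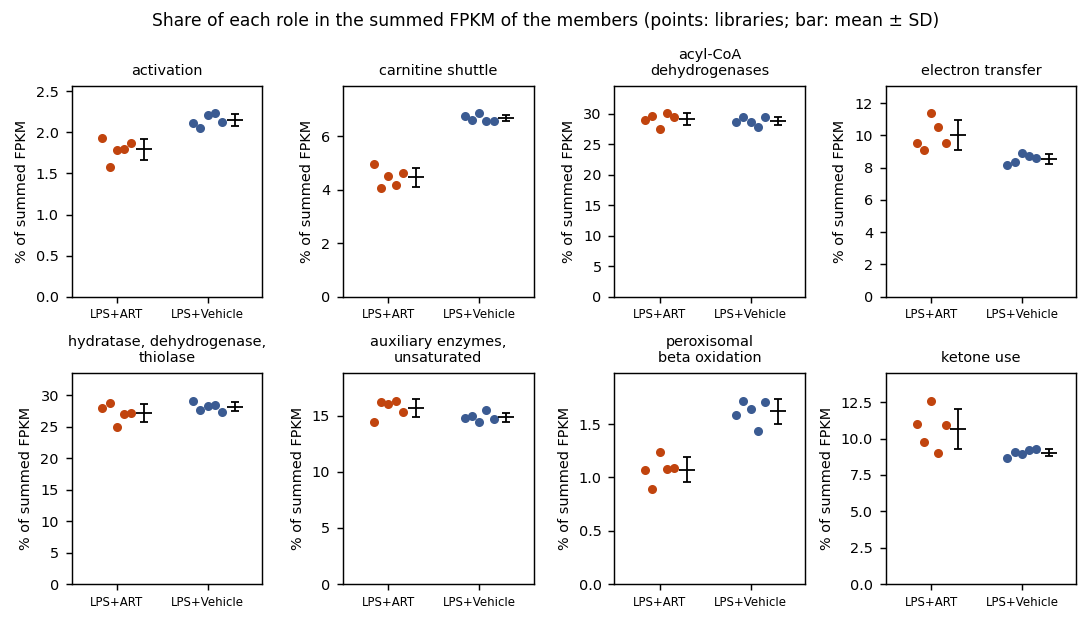
Share of each role in the summed FPKM of the 36 genes, in percent, for each LPS+ART and LPS+Vehicle library (points; bars are mean ± SD, n = 5 each). The 6 genes of the carnitine shuttle and its control took 4.08 to 4.95% in LPS+ART against 6.58 to 6.86% in LPS+Vehicle.

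Change also went with expression level, among all genes as among the 36. Of the 7 genes with a mean of 0.5 to 5 FPKM over the 10 libraries, the number called lower as deposited was 4, with a median log2 fold change of -0.69, against -0.30 for the 7453 genes of that level, 55.1% of which were lower. Of the 7 at 5 to 20 FPKM, the number was 5, with a median log2 fold change of -0.39, against -0.31 for the 4112 genes of that level, 56.6% of which were lower. Of the 12 at 20 to 100 FPKM, the number was 5, with a median log2 fold change of -0.21, against -0.14 for the 1436 genes of that level, 38.4% of which were lower. Of the 10 above 100 FPKM, the number was 0, with a median log2 fold change of 0.01, against 0.13 for the 313 genes of that level, 15.0% of which were lower. After median-ratio scaling the genes called higher were 1 of the 7 at 0.5 to 5 FPKM, against 21.5% of all genes of that level, and 2 of the 7 at 5 to 20 FPKM, against 33.6%. They were 5 of the 12 at 20 to 100 FPKM, against 51.9%, and 8 of the 10 above 100 FPKM, against 77.0%. In 11 of the 36 genes every LPS+ART heart lay below every LPS+Vehicle heart, and in 0 above, against 42.5% and 7.54% of all genes. After median-ratio scaling these numbers were 5 and 12, against 23.1% and 21.5%.

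**Figure D5:**
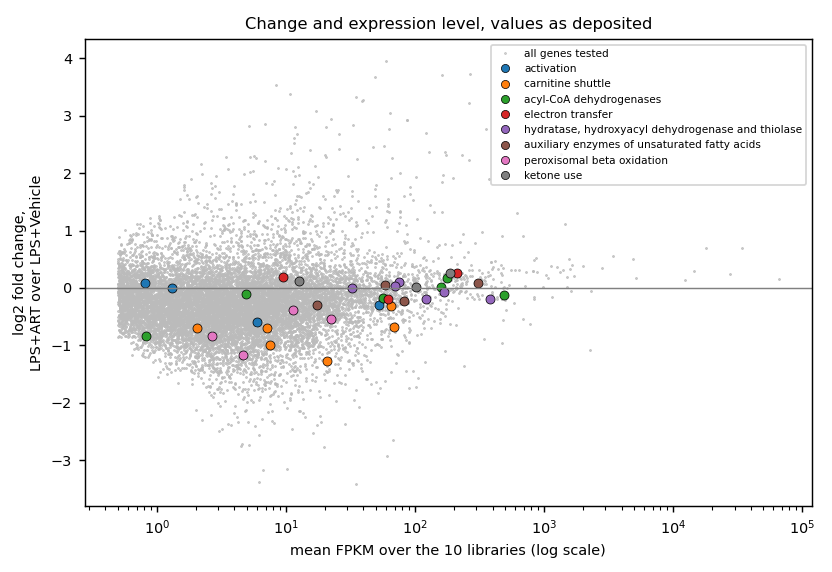
Log2 fold change as deposited, LPS+ART over LPS+Vehicle, against mean FPKM (log axis) for the 13314 genes tested (grey) and the 36 genes (coloured). Mlycd lies at -1.27, while the 10 genes above 100 FPKM have a median of 0.01.

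A wider list of 59 other genes of fatty acid and ketone metabolism had 56 in the table and 47 above the filter on low values. As deposited 32 were called lower and 3 higher, where 52.9% of all genes tested were lower and 11.8% higher. After median-ratio scaling 16 were lower and 10 higher, where 30.3% of all genes were lower and 29.9% higher. Among the 13 peroxisomal genes tested, 10 were lower as deposited and 8 after that scaling, beside the same shares of all genes. Nudt7, a peroxisomal hydrolase of coenzyme A, averaged 2.52 ± 0.424 FPKM in LPS+ART, against 8.87 ± 1.38 FPKM in LPS+Vehicle (limma adjusted p = 4.29e-06). Crot, which passes shortened chains to carnitine, averaged 2.76 ± 0.416 FPKM in LPS+ART, against 8.21 ± 1.36 FPKM in LPS+Vehicle (limma adjusted p = 8.01e-06). Etfbkmt, which methylates the flavoprotein beta subunit, averaged 6.81 ± 1.53 FPKM in LPS+ART, against 22.0 ± 3.05 FPKM in LPS+Vehicle (limma adjusted p = 9.97e-06). Acsl4, a synthetase that prefers arachidonic acid, was higher at 9.87 ± 1.42 FPKM in LPS+ART, against 7.20 ± 0.773 FPKM in LPS+Vehicle (limma adjusted p = 0.00443). Mcee, an epimerase of the propionate pathway, was higher at 33.3 ± 2.24 FPKM in LPS+ART, against 25.8 ± 2.27 FPKM in LPS+Vehicle (limma adjusted p = 0.00168). Aacs, which activates acetoacetate in the cytosol, was higher at 2.05 ± 0.407 FPKM in LPS+ART, against 1.55 ± 0.154 FPKM in LPS+Vehicle (limma adjusted p = 0.0378), a call lost without LPS+ART replicate 2, 3 or 5 or LPS+Vehicle replicate 1, 2, 3 or 5, and with LPS+Vehicle replicates 2 and 5 averaged. These 6 genes kept their calls after median-ratio scaling and after cyclic loess.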

How the data were processed

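Poly(A) RNA of 10 hearts had been sequenced as paired-end libraries, per the labels' protocols. The authors deposited FPKM, a unit judged from the values, as the header names only the samples. The build is mm9, per the submitters' processing notes; the sources used here do not give the aligner, counting program, annotation or strand setting. GENCODE M21 gave symbols for 29538 of 30074 gene identifiers, and with its exon lengths 29005 genes gave whole reads (98.2%, tolerance 0.01 read). M21 was made for a build after mm9, so the annotation behind the values is unclear, and recovered reads and exon overlaps rest on M21. Of read numbers 1 to 4, 64.0% were even, as when mates are counted apart. In 1 kb of exon 3 reads equal 0.0553 to 0.1001 FPKM, for counting error only.

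limma 3.58.1 (R 4.3.3), with a trend, was fitted to log2(FPKM + 1) where the mean reached 0.5 FPKM, with group as the only term and no scaling, and tested on simulated data. The simulated data held no shift of all genes, so they do not show how the fit performs under the shift seen here. Adjusted p (Benjamini-Hochberg) covers all 13314 genes. The labels do not say how libraries map to animals beyond the group sizes, so p-values reflect only how these libraries vary. The 36 genes, the lists and the tests were chosen with earlier results of these data known. Values in all libraries are given for genes called as deposited and likewise after median-ratio scaling, if the higher group reached 5 FPKM. They are also given for Cpt1a and Cpt1b and for the most abundant gene of each role. Acad10 was added after its values were seen, and so were the means of Slc25a20 from the wider list. Of the wider list the 4 largest rises and 4 largest falls called, if the higher group reached 1 FPKM, are named, and only 3 genes were called higher; 1 gene this rule names is not reported here. Hsd17b8, Mmut and Nudt8 of that list were not analysed here. Alternatives were median-ratio scaling, cyclic loess, a pseudocount of 0.1, no filter, a filter at 1 FPKM, limma-voom on recovered reads (12935 genes), a replicate block, the library choices given with the results, each library left out, and adjusted p under 0.01. Plots used Python 3.11.15 and matplotlib 3.10.9.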

Additional observations from a re-analysis of the deposited data

Results flagged for a closer look

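Among 86 combinations of gene and group, 1 held a library far from the other 4, where chance gives about 1 in 20. Acsl1 stood at 56.6 FPKM in LPS+ART replicate 1 and at 43.3 to 46.8 FPKM in the other LPS+ART libraries, a gap of 0.74 of the range of the group. Without that library the log2 fold change of Acsl1 was -0.36 as deposited. The reason was not tested.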

How the results depend on the processing

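Of the 36 genes, 16 were called higher and 9 lower after median-ratio scaling, and again 16 and 9 by limma-voom, with medians of 0.21 under both. Cyclic loess gave 3 higher, leaving out LPS+ART replicates 3 and 4 gave 2, and adjusted p under 0.01 gave 0 by limma. The share of all genes under 0.01 is not given here. Of the wider list, 10 were higher and 16 lower after median-ratio scaling and by limma-voom, and 5 higher and 18 lower after cyclic loess. The direction turned in 13 genes, with log2 fold changes after median-ratio scaling and by limma-voom of 0.0953 and 0.0979 for Acsl1, 0.22 and 0.37 for Acsl3, 0.0742 and 0.0755 for Crat, 0.27 and 0.27 for Acadl, 0.22 and 0.22 for Acads, 0.22 and 0.25 for Acad11, 0.19 and 0.19 for Etfdh, 0.20 and 0.20 for Hadha, 0.31 and 0.32 for Hadhb, 0.38 and 0.39 for Echs1, 0.20 and 0.20 for Acaa2, 0.0762 and 0.0816 for Eci2, 0.16 and 0.17 for Decr1. After cyclic loess it turned to 0.31 for Acsl3, 0.26 for Acad11, 0.16 for Echs1 and -0.0085 for Acadvl. With LPS+Vehicle replicates 2 and 5 averaged it turned to -0.0187 for Acadvl and -0.032 for Acat1, and without LPS+ART replicates 3 and 4 to 0.0015 for Echs1. The cause was not tested.

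With each library left out in turn, 1 to 2 of the 36 genes were higher and 12 to 16 lower, with medians of -0.23 to -0.14, and 2 to 3 of the wider list were higher and 29 to 33 lower. Fold changes then spanned -0.10 to 0.0617 for Acsl3, -0.028 to 0.0483 for Acadvl, -0.0396 to 0.0229 for Echs1 and -0.0408 to 0.0609 for Acat1. Replicate numbers were not taken as pairs, since the deviations of same-numbered libraries correlated at -0.07 to 0.182, and 2 of 5 LPS+ART libraries correlated best with the LPS+Vehicle library of their own number. A replicate block left 1 gene higher and 13 lower, and Eci2 lost its call. With no filter 12 of the 36 genes were lower, without Acsl1 and Eci2. The shares of all genes called with a library left out, with the block or with no filter are not given here. In the main fit 52.9% of all genes tested were lower and 11.8% higher. The filter at 1 FPKM gave no value for Acad10 and Acsl6. Among the 36 genes Acad10 had the fewest reads, 43 in 1 library.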
